A study of Mus musculus with 8 samples.

Results

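The 8 genes described here were grouped as genes of neutrophils and of the acute phase, the response of tissues to inflammatory cytokines. All code for secreted or inducible proteins, and not all are particular to neutrophils. The 8 genes are S100a8, S100a9, Lcn2, Saa3, Slpi, Il1b, AA467197 and Wfdc17. They were picked by name because they stood high in dilated aortas of this series. Every probe carrying one of these symbols in the platform annotation was taken, which gave 8 probes, 1 for each gene, of the 25697 probes on the arrays. All 8 passed the filter on dim probes, among 10040 genes and unnamed probes tested. Their values in dilated against normal aortas chose them, so those values are given as a description without a test.

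RNA of the ascending aorta was measured on Illumina bead arrays, 1 array for each of 8 C57BL/6 mice. In mucopolysaccharidosis VII (MPS VII), a disease of lysosomal storage, beta-glucuronidase, the product of Gusb, is missing, so that glycosaminoglycans build up in cells. The MPS VII mice with a dilated aorta were a female of 7.8 months, a female of 9.1 months and a male of 6.0 months, called dilated mice 1, 2 and 3. The MPS VII mice without dilatation were a female of 5.8 months and a male of 6.7 months, and the normal mice were a female of 5.8, a male of 6.4 and a female of 7 months. The labels give MPS VII as the genotype with no allele, and do not say how dilatation was judged or whether normal mice were littermates.

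Values are the deposited intensities on a linear scale, from which a background had been subtracted, and an intensity above 25.6 is called above background here. Differences between groups are on the log2(intensity + 50) scale, which understates the change of dim genes. The arrays had been brought to 1 distribution, with medians between 17.75 and 17.99, and between 45.0% and 45.2% of probes were above background on each. Gusb was at 184 to 218 in dilated aortas, at 112 and 125 in aortas that were not dilated, and at 992 to 1172 in normal aortas, so every array matched its genotype label. The number of arrays limits the precision of every comparison.

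S100a8 and S100a9 pair to form calprotectin, a calcium- and zinc-binding complex that fills the cytosol of neutrophils and, once released, signals through Toll-like receptor 4. Lcn2 is a lipocalin that keeps iron-loaded siderophores from bacteria, and Saa3 is a serum amyloid A made largely outside the liver by macrophages and fat cells. Slpi inhibits neutrophil elastase and cathepsin G, and Wfdc17 is a small secreted protein with the same WAP fold, described in activated mouse macrophages and microglia. Il1b is the cytokine that caspase-1 cuts into its active form. AA467197 is the mouse gene for a small mitochondrial protein, known in human as C15orf48, that can take the place of Ndufa4 in cytochrome c oxidase during inflammation.

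Transcription of several of these genes is known to respond to C/EBP and NF-kappa-B factors, and their promoters are shown because the genes were high on the same array. All 8 were found in RefSeq promoters of the GRCm38.p6 build, which hold 250 bases before and 50 after the start of each gene. The C/EBP motif TTNNGCAA, searched on both strands, was in 4 of the 8 promoters, those of S100a9, Lcn2, Saa3 and Slpi, and in 10.8% of all 32851 promoters. The TATA box TATAAA, searched on the gene's strand, was in 4, those of S100a8, S100a9, Il1b and Wfdc17, and in 8.32% of all promoters. It began 30 bases before the start of S100a8 and 31 before that of Il1b, and at the start itself or within 3 bases of it in S100a9 and Wfdc17. The 10-letter kappa-B motif was in 2, Lcn2 and Saa3, and in 26.8% of all promoters. The AP-1 motif TGANTCA was in AA467197 alone and in 7.81% of all promoters, and the STAT motif TTCNNNGAA was in 0 of the 8 and in 8.3% of all, both searched on both strands. The 250 bases before the start of 4 genes follow, with C/EBP, TATA box and kappa-B matches in capitals. They lie at chr7:46715677-46715926 on the minus strand for Saa3, at chr2:32387740-32387989 on the minus strand for Lcn2, at chr3:90668821-90669070 on the plus strand for S100a8 and at chr2:129371140-129371389 on the minus strand for Il1b.
Saa3: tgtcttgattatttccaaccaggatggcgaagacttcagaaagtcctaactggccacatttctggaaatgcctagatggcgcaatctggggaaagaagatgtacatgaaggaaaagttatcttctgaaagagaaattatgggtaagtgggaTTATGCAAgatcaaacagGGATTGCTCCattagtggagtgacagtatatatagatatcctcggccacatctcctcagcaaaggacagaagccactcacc
Lcn2: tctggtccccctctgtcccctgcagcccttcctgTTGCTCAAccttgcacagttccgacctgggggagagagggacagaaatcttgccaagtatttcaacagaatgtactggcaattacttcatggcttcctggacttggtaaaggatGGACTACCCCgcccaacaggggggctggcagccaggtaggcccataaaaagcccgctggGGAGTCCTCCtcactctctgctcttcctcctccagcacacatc
S100a8: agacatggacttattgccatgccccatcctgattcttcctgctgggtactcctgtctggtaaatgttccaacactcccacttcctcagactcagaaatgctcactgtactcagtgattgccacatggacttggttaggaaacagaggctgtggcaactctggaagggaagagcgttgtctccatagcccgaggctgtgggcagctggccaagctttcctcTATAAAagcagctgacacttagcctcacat
Il1b: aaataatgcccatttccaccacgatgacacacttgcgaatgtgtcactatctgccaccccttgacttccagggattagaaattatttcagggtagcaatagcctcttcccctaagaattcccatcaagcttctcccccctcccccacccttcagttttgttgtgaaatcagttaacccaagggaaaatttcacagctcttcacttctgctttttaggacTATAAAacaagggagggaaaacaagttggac
In Saa3 the C/EBP match, 99 to 92 bases before the start, lies close to the kappa-B match at 81 to 72 bases. In Lcn2 the 2 kappa-B matches lie 102 to 93 and 43 to 34 bases before the start, and none of the capitals in the printed promoters overlap. A match in these letters is a description and not a measured binding site.

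In dilated aortas the 8 genes were high mainly in dilated mouse 3. That array was the highest of the 8 for 7 of the 8 genes, against 13.9% of all genes, and dilated mouse 2 was the highest for AA467197. Dilated mouse 3 lay at least 1 log2 unit above both other dilated mice for 6 of the 8 genes, which was so for 133 genes in all, 1.32% of those tested. The same margin was met by 0.129% of genes in dilated mouse 1 and by 0.289% in dilated mouse 2. The median of the 8 genes lay 1.93, 1.06 and 4.48 log2 units above the normal mean in dilated mice 1, 2 and 3, and 1.63 and 1.44 above it in the mice that were not dilated.

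**Figure D1:**
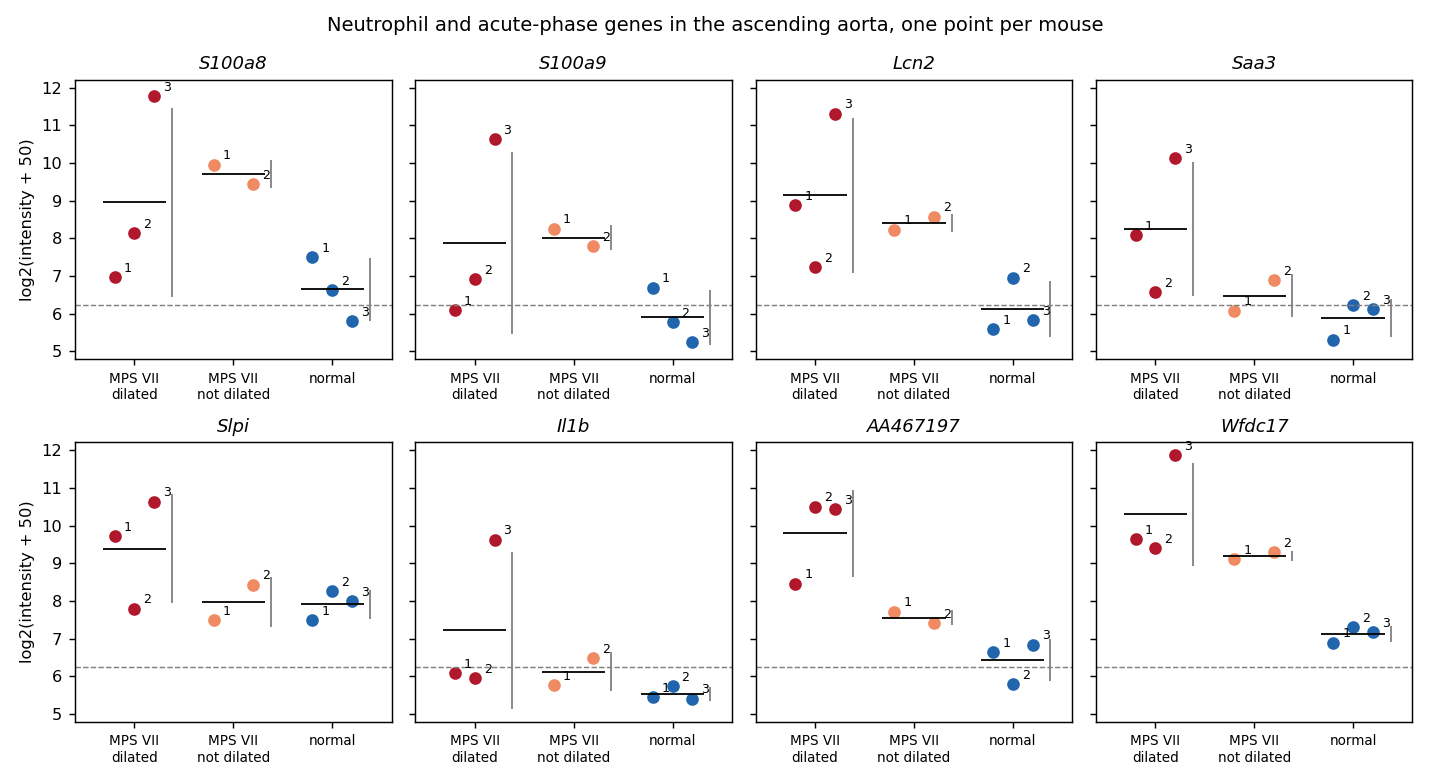
Level of the 8 genes as log2(intensity + 50) in each mouse, with MPS VII dilated, MPS VII not dilated and normal aortas from left to right and replicate numbers beside the points. Black lines are group means, grey bars are 1 SD to each side, and the dashed line is the background bound at an intensity of 25.6; dilated mouse 3 is the top point in 7 of the 8 panels.

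The calprotectin genes were the most uneven. S100a8 had intensities of 74.8, 230.2 and 3459 in dilated aortas, 946 and 646 in aortas that were not dilated, and 131, 48.6 and 6.01 in normal aortas. S100a9 had 18.6, 71.2 and 1533 in dilated aortas, 257 and 171 in aortas that were not dilated, and 53.1, 4.94 and -12.2 in normal aortas. For both genes dilated mouse 3 was highest, both mice without dilatation came next, and dilated mouse 1 lay within the range of the normal mice. Both mice without dilatation were above dilated mice 1 and 2 and all 3 normal mice for these 2 of the 8 genes, an order held by 7.72% of all genes. The intensity of dilated mouse 3 was 15.03 times that of the next dilated mouse for S100a8 and 21.5 times for S100a9. The dilated minus normal difference was 2.31 ± 1.03 log2 units (SE) for S100a8 and 1.98 ± 0.98 for S100a9, and 0.90 and 0.61 without dilated mouse 3.

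Lcn2 and Saa3, the iron-withholding lipocalin and the local serum amyloid, were high in dilated mouse 1 as well. Lcn2 had intensities of 423, 101 and 2496 in dilated aortas, 251 and 331 in aortas that were not dilated, and -1.88, 74.6 and 6.76 in normal aortas. All 5 MPS VII arrays were above all normal arrays, and dilated mouse 2 was the lowest of the 5. Saa3 had 220.4, 45.0 and 1064 in dilated aortas, 17.5 and 67.9 in aortas that were not dilated, and -10.2, 24.6 and 19.3 in normal aortas. No normal array was above background for Saa3, so the dilated mean was at least 4.05-fold higher than normal, counted against the background bound, and at least 2.12-fold higher without dilated mouse 3. The Lcn2 difference, dilated minus normal, was 3.02 ± 0.84 log2 units (SE), and 1.93 without dilated mouse 3.

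The antiprotease genes Slpi and Wfdc17 differed in pattern. Slpi had intensities of 799, 172 and 1542 in dilated aortas, 130.3 and 296 in aortas that were not dilated, and 130.2, 256 and 205 in normal aortas. Dilated mice 1 and 3 were above every other mouse, whereas dilated mouse 2 and not dilated mouse 1 lay within the normal range or at its lower edge. Wfdc17 had 748, 626 and 3706 in dilated aortas, 502 and 581 in aortas that were not dilated, and 68.6, 108 and 94.3 in normal aortas. Every dilated array was above every array without dilatation, and those were above every normal array. The dilated minus normal difference of Wfdc17 was 3.18 ± 0.54 log2 units (SE) and stayed at 2.40 without dilated mouse 3. For Slpi it was 1.47 ± 0.61, and 0.85 without that mouse.

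Il1b was measured in few aortas. Its intensities were 18.0, 11.6 and 741 in dilated aortas, 4.41 and 39.9 in aortas that were not dilated, and -6.51, 3.29 and -7.45 in normal aortas. It was above background in dilated mouse 3 and in not dilated mouse 2, and in no other mouse. The dilated mean was at least 1.97-fold higher than normal, which rests on dilated mouse 3.

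AA467197, the gene of the mitochondrial microprotein, had a pattern of its own. Its intensities were 303, 1405 and 1333 in dilated aortas, 159.8 and 121 in aortas that were not dilated, and 50.4, 5.48 and 65.0 in normal aortas. All 3 groups were apart, with dilated mice 2 and 3 nearly level and dilated mouse 1 between them and the mice without dilatation. Wfdc17 had the same order of groups, and the share of all genes with that order was not counted. The dilated minus normal difference was 3.37 ± 0.51 log2 units (SE), and 3.06 without dilated mouse 3. Ndufa4, the subunit it can replace, had intensities of 9817 to 14201 in dilated aortas, 13563 to 18745 in aortas that were not dilated and 8189 to 11248 in normal aortas, and was not called in any of the 3 comparisons.

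**Figure D2:**
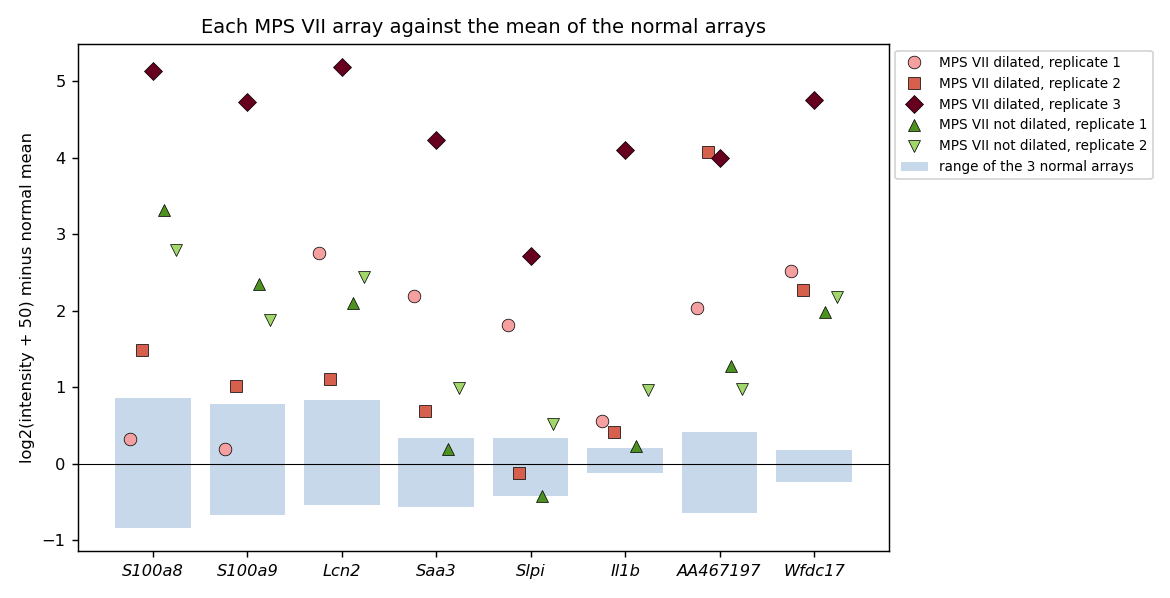
Difference of each MPS VII array from the mean of the 3 normal arrays, in log2(intensity + 50), for the 8 genes. Symbols stand for single mice and blue bars for the range of the normal mice; dilated mouse 3 lies between 2.72 and 5.19 above the normal mean for all 8 genes, and the mice without dilatation lie above dilated mice 1 and 2 for S100a8 and S100a9.

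Over the 8 genes the median dilated minus normal difference was 2.34 log2 units, against -0.05 over all genes. It was 2.16 with Saa3 and Il1b at their bounds, and 1.17 without dilated mouse 3. All 3 dilated arrays were above all 3 normal arrays for 5 of the 8 genes, Lcn2, Saa3, Il1b, AA467197 and Wfdc17, and for 17.9% of all genes. For Il1b the normal arrays and dilated mice 1 and 2 were below background, where values have no order. Ranked by the distance of dilated mouse 3 from the higher of the other dilated mice, S100a9 came 4, S100a8 came 5 and Il1b came 6 among the 10040 genes, with 3.71, 3.65 and 3.54 log2 units. Lcn2, Wfdc17 and Saa3 followed at ranks 20, 23 and 29 with 2.43, 2.23 and 2.04. Slpi was at rank 159 with 0.91, and AA467197 at rank 4412 with -0.07.

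**Figure D3:**
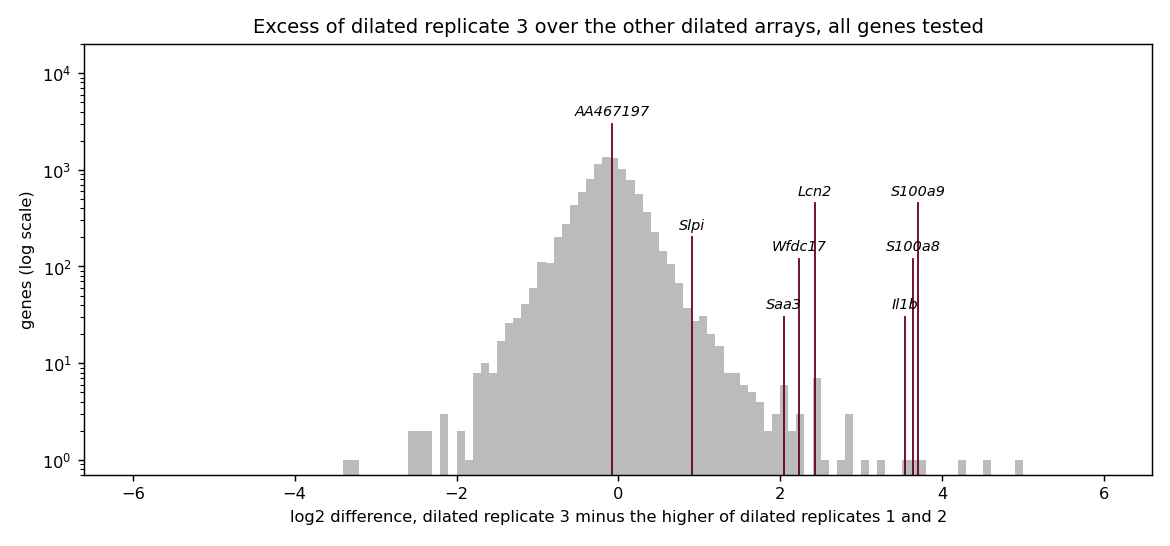
Number of genes, on a log scale, by the log2 difference of dilated mouse 3 from the higher of dilated mice 1 and 2, over all 10040 genes tested, with the 8 genes as red lines whose height has no meaning. S100a9, S100a8 and Il1b lie between 3.54 and 3.71, while AA467197 lies at -0.07, inside the main body of genes.

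Dilated mouse 3 was the youngest dilated mouse and the only male among them. The part of sex, age or of this 1 mouse in the levels of dilated mouse 3 cannot be told apart, since no other dilated mouse was male.

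The comparison of not dilated MPS VII aortas with normal aortas asks which of these genes differ with genotype in the absence of widening. The normal arrays are shared with the comparison that chose the genes. With limma over all 8 arrays and Benjamini-Hochberg adjustment over all genes, 0 of the 8 genes passed an adjusted p of 0.05, where 4.84% of all genes were called higher and 5.17% lower. Unadjusted, 3 of the 8 were at p under 0.05 in limma, as were 3109 of all 10040 genes tested. S100a8 had the largest difference of the 8, 3.06 ± 1.15 log2 units (SE, adjusted p = 0.112). Wfdc17 was 2.08 ± 0.60 higher (adjusted p = 0.0602), Lcn2 2.28 ± 0.94 (adjusted p = 0.140) and S100a9 2.12 ± 1.09 (adjusted p = 0.219). AA467197 differed by 1.13 ± 0.57 (adjusted p = 0.207), Saa3 by 0.60 ± 0.82 (adjusted p = 0.651), Il1b by 0.60 ± 0.92 (adjusted p = 0.688) and Slpi by 0.05 ± 0.68 (adjusted p = 0.968), all in limma.

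These errors came from all 3 groups, and the spread of the dilated mice was the widest. In a limma fit of the 5 arrays of the groups compared, 4 of the 8 genes were higher in aortas that were not dilated, where 5.22% of all genes were called higher. They were S100a8 (adjusted p = 0.0122), S100a9 (adjusted p = 0.0219), Lcn2 (adjusted p = 0.0182) and Wfdc17 (adjusted p = 0.00374). The same 4 genes were called when only dilated mouse 3 was left out, with adjusted p of 0.00926, 0.0159, 0.0246 and 0.00127, where limma called 6.96% of all genes higher. Both mice without dilatation were above all 3 normal mice for 6 of the 8 genes, the exceptions being Saa3 and Slpi, and for 20.2% of all genes. For Il1b that count includes not dilated mouse 1, which was below background.

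Between dilated and not dilated aortas 0 of 10040 genes passed in limma, and 910 were at an unadjusted p under 0.05, of the 8 genes only AA467197. The dilated minus not dilated difference was 2.24 log2 units for AA467197, 1.78 for Saa3, 1.42 for Slpi, 1.101 for Wfdc17, 1.09 for Il1b and 0.74 for Lcn2. It was -0.14 for S100a9 and -0.74 for S100a8, with a 95% interval for S100a8 that ran between -3.34 and 1.85. The dilated arrays are shared with the comparison that chose the genes.

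Most measured markers of neutrophils themselves had low intensities. Of 22 listed neutrophil markers 18 were on the array and 12 were above background in any mouse. Ly6g, Fpr1, Fcnb and Stfa2 were not in the annotation, so nothing is known of them here. Those not above background in any were Ctsg, Cxcr2, Mmp8, Mpo, Padi4 and Stfa3, which code for granule enzymes, a chemokine receptor and other neutrophil proteins. The summed intensity of the 18 was 179, 215 and 925 in dilated aortas, 424 and 309 in aortas that were not dilated, and 254 to 297 in normal aortas. Dilated mouse 3 thus had the highest sum, and dilated mice 1 and 2 were below every normal mouse. In dilated mouse 3 alone Il1r2, the decoy receptor for interleukin 1, was above background, at 201, as was Cd177, a neutrophil surface protein, at 96.9. Fpr2, a formyl peptide receptor that serum amyloid A can engage, is not on the marker list. It was at 315 in dilated mouse 3 and above background in no other mouse. The neutrophil growth factor receptor Csf3r was at 140 in dilated mouse 3, against 15.9 to 44.1 in the other 7 mice. Il1r2, Cd177 and Csf3r are named after their values were seen. Of the 8 neutrophil markers tested, 5 were highest in dilated mouse 3, against 13.9% of all genes. Elane, the neutrophil elastase gene, was at 16.9 there, below the 30.7 to 34.6 of normal aortas. RNA of a whole vessel was measured, so more cells of a type and more RNA per cell cannot be told apart.

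Of the 8 neutrophil markers tested, limma called 0 in dilated against normal aortas, where 9.82% of all genes were called higher and 10.4% lower. In aortas that were not dilated limma called 2 higher than normal, Ltf and Camp, which code for the granule proteins lactoferrin and cathelicidin and are named after their values were seen. Both passed the filter on dim probes only through the not dilated arrays, where they are high, so those calls are given as a description. Ltf had intensities of 13.9, 18.0 and 30.4 in dilated aortas, 118 and 88.0 in aortas that were not dilated, and 16.01, 14.9 and -1.46 in normal aortas. Camp had -1.80, 3.81 and -1.35 in dilated aortas, 51.0 and 29.6 in aortas that were not dilated, and -10.7, -6.91 and -8.36 in normal aortas. Both mice without dilatation were above all other mice for both genes, dilated mouse 3 included. No normal array was above background for either, so in aortas that were not dilated Ltf was higher by a factor of at least 2.02 and Camp by at least 1.19 than in normal aortas. The fitted not dilated minus normal difference was 1.36 log2 units for Ltf and 1.12 for Camp, and 1.22 and 0.95 without not dilated mouse 1. In that fit, where the lone not dilated array is assumed to vary like the other groups, neither was called. Between dilated and not dilated aortas limma called neither.

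**Figure D4:**
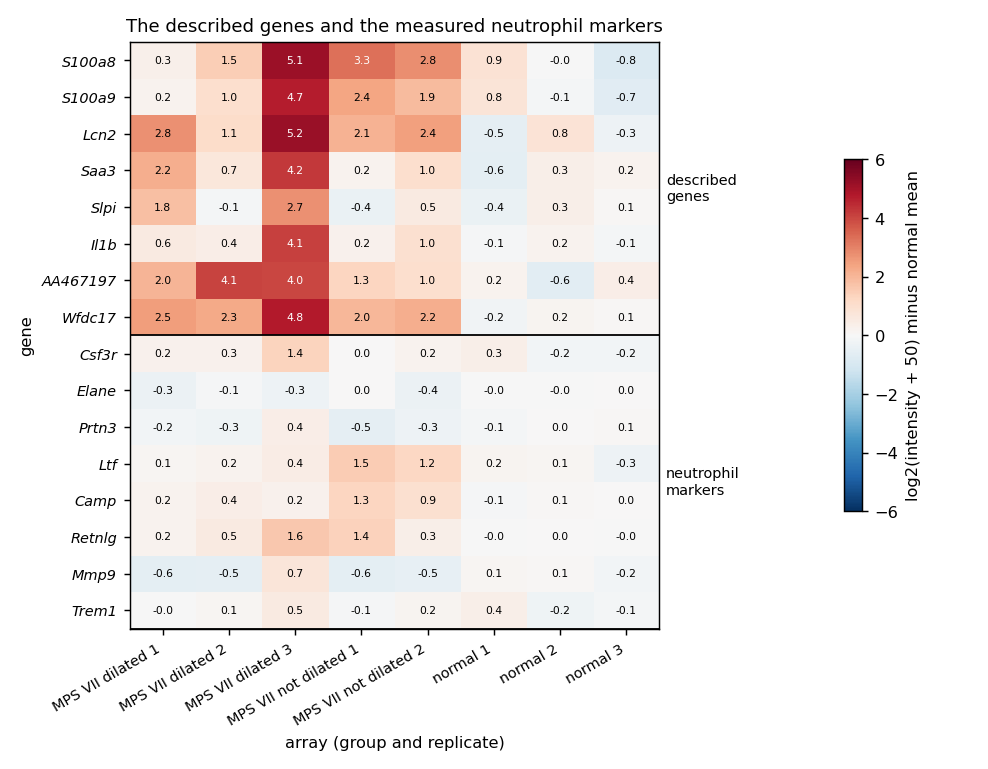
Difference of each array from the mean of the normal arrays in log2(intensity + 50), for the 8 genes above the line and the 8 tested neutrophil markers below it, with 1 column for each mouse. The calprotectin genes, Ltf, Camp and Retnlg lie above the normal mean in not dilated mouse 1, whereas in dilated mouse 3 Ltf and Camp stay near the normal level.

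Markers of several cell types moved with the groups, among them those of macrophages, which also make several of these proteins. Of 16 tested monocyte and macrophage markers limma called 13 higher and 0 lower in dilated than in normal aortas, against 9.82% and 10.4% of all genes. In aortas that were not dilated it called 8 higher and 0 lower, where 4.84% of all genes were called higher, and 1 to 9 higher when 1 mouse was left out, the fewest without normal mouse 3. The summed intensity of the 18 on the array was 40947 to 57524 in dilated aortas, 18280 to 29196 in aortas that were not dilated and 6474 to 11490 in normal aortas, with no overlap between groups. Of these 18 only Ccr2 was above background in no mouse. Lyz1 alone gave much of the sum, at 21980 to 29968 in dilated aortas, 10357 and 17232 in aortas that were not dilated, and 3459 to 6301 in normal aortas. Cd163 was at 152 to 314 in dilated aortas, 184 and 196 in aortas that were not dilated, and 309 to 399 in normal aortas. All 3 dilated arrays were above all 3 normal arrays for 17.9% of all genes, a share of single genes and not of sums. The adipocyte markers, whose cells also make Saa3, Lcn2 and haptoglobin, summed to 12790 to 22066 in dilated aortas, 12708 to 23499 in aortas that were not dilated and 2683 to 6761 in normal aortas. Of 6 tested, limma called 4 higher and 0 lower in dilated than in normal aortas, against 9.82% and 10.4% of all genes. In aortas that were not dilated it called 3 higher and 0 lower, against 4.84% and 5.17%. Fabp4 and Retn were not above background in any mouse, and Lep was at 99.8 to 605 in dilated and 224 to 442 in normal aortas. Of 9 smooth muscle markers limma called 0 higher and 8 lower in dilated than in normal aortas, and 3 to 8 lower when 1 mouse was left out, the fewest without normal mouse 2, with a median difference of -1.13 log2 units, and of 8 endothelial markers 4 higher and 0 lower, with a median of 0.71. The part of these cell types in the levels of the 8 genes was not tested.

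Genes of activated macrophages were also uneven over the dilated mice. Of 10 tested, limma called 4 higher in dilated than in normal aortas, Ccl8, Clec4d, Clec4n and Mrc1, against 9.82% of all genes. It called 1 lower, Retnla, which is named after its value was seen, against 10.4% of all genes. Clec4d, a C-type lectin receptor of myeloid cells, had intensities of 244, 358 and 710 in dilated aortas, 62.2 and 85.2 in aortas that were not dilated, and 7.90, 4.97 and -3.48 in normal aortas. Its level in dilated aortas was at least 5.96 times that in normal aortas (adjusted p = 0.000573 in limma). Ccl8, a monocyte chemokine, was 3.82 ± 0.52 log2 units (SE) higher in dilated than in normal aortas (limma adjusted p = 0.002). Arg1, the arginase of alternatively activated macrophages, is named after its values were seen. It was at 2331 in dilated mouse 3 and at 50.8 in dilated mouse 2, and was not above background in any other mouse.

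Some acute-phase genes outside the 8 were also called. Of 27 listed, 24 were on the array and 11 were tested, and limma called 4 higher and 0 lower in dilated than in normal aortas, against 9.82% and 10.4% of all genes. In aortas that were not dilated it called 2 higher, Cp and Orm1, and 1 lower than in normal, against 4.84% and 5.17% of all genes. The median dilated minus normal difference of the 11 was 0.47 log2 units. Cp, the copper oxidase ceruloplasmin, was 1.58 ± 0.16 log2 units (SE) higher in dilated than in normal aortas (limma adjusted p = 0.000661), with 1190, 1482 and 971 in dilated aortas against 334, 403 and 370 in normal aortas. Orm1, an orosomucoid, was 1.98 ± 0.39 log2 units (SE) higher (limma adjusted p = 0.0104). Lrg1, a leucine-rich glycoprotein, was 2.24 ± 0.62 log2 units (SE) higher (limma adjusted p = 0.0339), and its call was lost without any 1 of the normal mice, at adjusted p up to 0.102. Serpina3n, a serine protease inhibitor, was 2.42 ± 0.74 log2 units (SE) higher (limma adjusted p = 0.0484), and 7 of the 8 limma fits that left out 1 mouse lost that call, at adjusted p up to 0.131. Hp, the haemoglobin scavenger haptoglobin, had intensities of 6884, 5705 and 48443 in dilated aortas, 8194 and 4771 in aortas that were not dilated, and 4098, 2667 and 2965 in normal aortas. Like Lcn2 and Saa3 it was highest in dilated mouse 3, and it is named after its values were seen. The serum amyloids Saa1, Saa2 and Saa4 and the liver genes Crp, Fga, Fgb and Fgg were not above background in any mouse.

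Genes of the interleukin-1 family were called in both directions. Of 16 tested, limma called 2 higher, Il18r1 and Casp1, and 2 lower, Il18bp and Traf6, in dilated than in normal aortas, against 9.82% and 10.4% of all genes. It called 0 higher and 1 lower in aortas that were not dilated, against 4.84% and 5.17% of all genes. Casp1, the protease that activates Il1b, had intensities of 467, 566 and 847 in dilated aortas, 313 and 405 in aortas that were not dilated, and 282, 293 and 218 in normal aortas. Its dilated minus normal difference was 1.08 ± 0.21 log2 units (SE, limma adjusted p = 0.00955), and it stayed called whichever mouse was left out. Traf6, an adaptor below the receptor, was at limma adjusted p = 0.0497 and lost its call in 6 of the 8 fits that left out 1 mouse, at adjusted p up to 0.137, and so did Il18bp, the interleukin 18 binding protein (limma adjusted p = 0.037, and up to 0.118). Il18r1, which passed the filter only through the dilated arrays, lost its call without normal mouse 1 (limma adjusted p = 0.0725) and without normal mouse 3. The receptor Il1r1 was at 34.2 to 85.8 in dilated aortas, 49.3 to 66.6 in aortas that were not dilated and 48.7 to 82.3 in normal aortas. The inflammasome sensor genes Nlrp3 and Aim2 and the cytokine gene Il1a were not above background in any mouse.

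Several of the listed inflammatory cytokines and chemokines were highest in dilated mouse 3. Of 18 listed, 5 were tested. In dilated against normal aortas limma called Ccl4 and Ccl3 higher and Csf1 lower, where 9.82% of all genes were higher and 10.4% lower. In aortas that were not dilated it called 0 higher and 1 lower than in normal, against 4.84% and 5.17% of all genes. Ccl4 had intensities of 230.5, 366 and 973 in dilated aortas, 34.7 and 169 in aortas that were not dilated, and -5.65, -2.05 and 51.0 in normal aortas, a dilated minus normal difference of 3.04 ± 0.53 log2 units (SE, limma adjusted p = 0.00589). Ccl3 was above background in dilated mice 2 and 3 alone, so it passed the filter only through the group in which it is called higher. It lost its call without normal mouse 2 or normal mouse 3 (limma adjusted p up to 0.0525), and Csf1 in 5 of the 8 fits that left out 1 mouse (limma adjusted p up to 0.111). Cxcl1, the main mouse chemokine for neutrophils, had 27.7, 83.4 and 2487 in dilated aortas, 65.0 and 118 in aortas that were not dilated, and 4.01, 8.28 and 3.26 in normal aortas. All 5 MPS VII mice were above all normal mice for Cxcl1, and none of the normal mice was above background. The related chemokine Cxcl2 (108), the monocyte chemokine Ccl2 (188) and Il6 (80.1) were above background in dilated mouse 3 and in no other mouse. Cxcl1, Cxcl2, Ccl2 and Il6 are named after their values were seen. Tnf, Csf2, Csf3, Nos2 and Ptgs2 were not above background in any mouse.

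**Figure D5:**
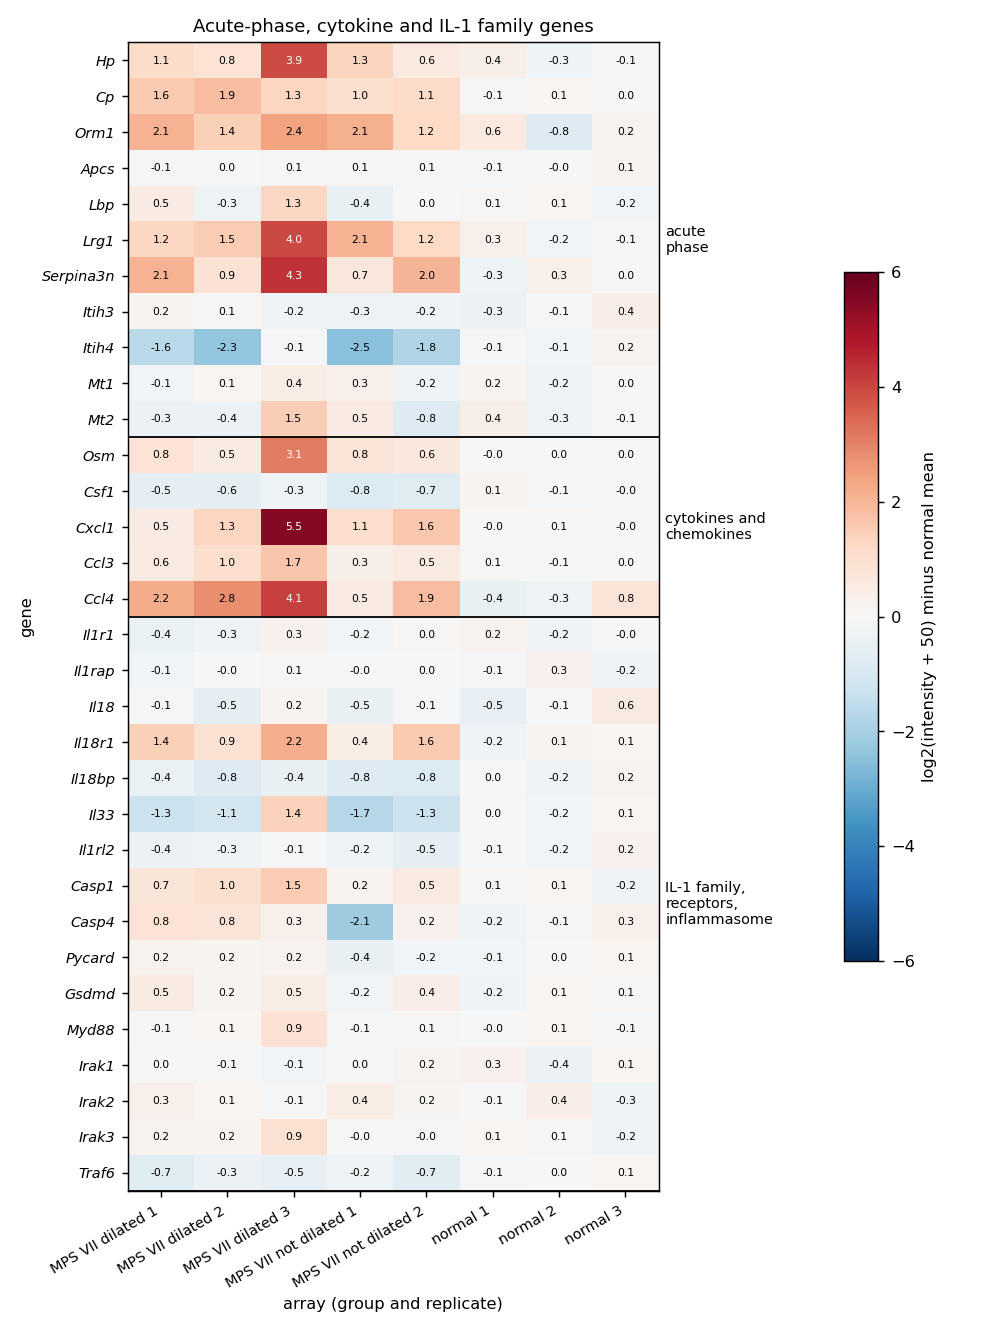
Difference of each array from the mean of the normal arrays in log2(intensity + 50), for the tested genes of the acute-phase, cytokine and interleukin-1 lists, with 1 column for each mouse. Hp, Lrg1, Serpina3n, Osm and Cxcl1 are highest in dilated mouse 3, whereas Cp is above the normal mice in all 5 MPS VII mice, highest in dilated mouse 2.

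The next list held NF-kappa-B, C/EBP and STAT3 factors, feedback genes and cytokine receptor genes. Whether they act on the promoters of the 8 genes was not tested. Of 17 tested, limma called 3 higher in dilated than in normal aortas, Cebpa, Nfkbie and Osmr, against 9.82% of all genes. It called 2 lower, Il17rc and Rela, against 10.4% of all genes. In aortas that were not dilated it called 1 higher and 1 lower, where 4.84% and 5.17% of all genes were. Nfkbie, an inhibitor of NF-kappa-B, passed the filter on dim probes only through the dilated arrays, where it is high. Cebpa, a C/EBP factor of myeloid and fat cells, had intensities of 125, 135 and 264 in dilated aortas, 211 and 106 in aortas that were not dilated, and 31.5, 12.02 and 4.38 in normal aortas, a dilated minus normal difference of 1.73 ± 0.28 log2 units (SE, limma adjusted p = 0.00422). Cebpb, another C/EBP factor, is named after its values were seen and was not called in any comparison. It was at 3227 to 4397 in dilated aortas, 8966 and 2945 in aortas that were not dilated, and 3668 to 5288 in normal aortas. Cebpe was not above background in any mouse, and Cebpd was not in the annotation. Rela, an NF-kappa-B subunit that is named after its value was seen, was at 2162 to 2570 in dilated aortas and 3108 to 3231 in normal aortas. The call of Osmr, a receptor subunit for oncostatin M, was lost without any 1 of the normal mice, at limma adjusted p up to 0.0554. Socs3, the feedback inhibitor of STAT3 signalling, is also named after its values were seen. It had 199, 205 and 1765 in dilated aortas, 96.1 and 138 in aortas that were not dilated, and 123, 171 and 109 in normal aortas.

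Receptors and relatives of the 8 gene products gave a mixed picture. Of 9 tested receptor genes, limma called Cd14 and Tlr2 higher and Emb lower in dilated than in normal aortas, where 9.82% of all genes were higher and 10.4% lower. In aortas that were not dilated it called 0 higher and 1 lower than in normal, against 4.84% and 5.17% of all genes. Cd14, the co-receptor of Tlr4, was 1.93 ± 0.30 log2 units (SE) higher in dilated than in normal aortas (limma adjusted p = 0.00392). Tlr2 lost its call without normal mouse 1 (limma adjusted p = 0.0552). Tlr4 was at 165 to 196 in dilated aortas, 131 to 149 in aortas that were not dilated and 158 to 200.01 in normal aortas, and the other calprotectin receptor, Ager, was not above background in any mouse. Slc22a17, a lipocalin receptor, was at 47.6 to 57.1 in dilated aortas, 51.8 to 58.0 in aortas that were not dilated and 42.0 to 67.2 in normal aortas. Of 8 tested S100 genes beside the calprotectin pair, limma called S100a1 alone, higher, in dilated than in normal aortas, and 4 of the 8 fits that left out 1 mouse lost it, at adjusted p up to 0.0918. In aortas that were not dilated limma also called S100a1 alone, 1.23 ± 0.26 log2 units (SE) higher than normal (adjusted p = 0.0229). Of 5 tested WAP domain and serine protease inhibitor genes limma called Wfdc2 higher and Wfdc1 lower, and Wfdc1 fell by 1.63 log2 units in dilated against normal aortas (limma adjusted p = 0.00549). Wfdc2 lost its call without normal mouse 1 or normal mouse 3 (limma adjusted p up to 0.0652). Of the same 5 genes limma called 0 in not dilated against normal aortas.

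The 8 genes resembled each other unequally over the arrays. Each gene's log2 values correlated with the mean of the other 7 at a Pearson's r between 0.70, for AA467197, and 0.96, for Wfdc17, over 8 arrays that share the high values of dilated mouse 3. Outside the 8, the genes most like their mean were Napsa, Osm, Gbp3, Limk1, Ap1b1, Samsn1, Snai1 and Lgals9, with r between 0.964 and 0.977 over the same 8 arrays. The r of Gbp3 was 0.715 with the mean of all its probes, and without dilated mouse 3 that of Snai1 was 0.874, of Lgals9 0.878 and of Samsn1 0.883. Osm had intensities of 40.6, 22.8 and 379 in dilated aortas, 38.9 and 29.0 in aortas that were not dilated, and 0.41, 2.71 and 1.68 in normal aortas. Its level was highest in dilated mouse 3 and not above background in any normal mouse, and the 8 genes named here were chosen for this likeness.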

How the data were processed

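The authors deposited 1 table of intensities on a linear scale, 25697 probes by 8 arrays. The submitters' processing notes name GenomeStudio and Partek without saying what each did, and how the table was made from the scans is not given in the sources used here. Between 27.8% and 28.0% of the values on each array are below 0, so a background had been subtracted, and after sorting, values of any array lie within 0.94 of the others, so the arrays had been brought to 1 distribution, which can hide a shift of all genes. A second table with 16 columns, whose column names match no single sample, was not used.

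The spread of the values below 0 gave a noise SD of 10.99 and a 1-sided 0.01 bound of 25.6, above which a value is called above background. Probes above it on at least 2 arrays were kept, 12913 of them, and the brightest probe stood for each gene, which left 8955 named genes and 1085 unnamed probes. Of all probes, 23141 have 1 gene symbol, 0 several and 2556 none, and all symbols were checked against the RefSeq table of GRCm38.p6 through gene identifiers. Values were taken as log2(intensity + 50) and fitted with limma 3.58.1 (R 4.3.3) over all 8 arrays with a mean for each group, with two-sided p-values adjusted by Benjamini-Hochberg over all genes and called at 0.05. The code was tested on simulated data. Lower bounds of folds were counted against the background bound, on the log2(intensity + 50) scale.

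The 8 genes and the gene lists were chosen with earlier results of these data known, so list counts are descriptions. Named by rule beside the 8 genes were, from each list, up to 4 called genes with the largest dilated minus normal difference, genes fixed by role as receptors or partners, and the 8 genes most correlated with the mean of the 8. Other genes were named after their values were seen, among them Cxcl1, Cxcl2, Ccl2, Il6, Hp, Socs3, Arg1, Il1r2, Cd177 and Csf3r, which were highest in dilated mouse 3. Titles name a separate mouse for each array, so replicates are mice. Alternatives were another floor, offset, filter, scaling, probe rule, group choice, array weights, age, sex or replicate number as a term, another prior, and leaving out each mouse.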

Additional observations from a re-analysis of the deposited data

How the results depend on the processing

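Genes called by limma numbered 2032 in dilated against normal aortas, 1005 in not dilated against normal and 0 in dilated against not dilated, and 20 alternatives were run. The first count was 3324 with array quality weights, and 1089 to 1950 when 1 mouse was left out. The second was 81 to 1538 when 1 mouse was left out, the fewest without not dilated mouse 1 and the most without dilated mouse 3. The third was 3 with an offset of 100, with array quality weights and with a trended robust prior, 4 without the filter, 19 with sex as a covariate, and 0 to 3 when 1 mouse was left out. Of the 8 genes, 0 were called in not dilated against normal aortas; 4 were when only those groups were fitted, 2 with age as a covariate, 1 with array weights, 1 with sex and 1 with a replicate block, and 0 to 4 when 1 mouse was left out. The median dilated minus normal difference of the 8 genes was 1.43 to 3.45 under the other settings and 1.17 to 3.01 when 1 mouse was left out, within the spread between mice. Slpi in not dilated minus normal was 0.05 and turned to -0.0408 with age and -0.14 with sex as a covariate, and lay between -0.42 and 0.52 when 1 mouse was left out, below 0 without not dilated mouse 2 or normal mouse 1; the cause was not tested. Cyclic loess gave 1119 genes higher and 846 lower in dilated against normal, where 986 and 1046 were called, and 528 higher and 376 lower in not dilated against normal, where 486 and 519 were. The labels do not say that replicate numbers pair the mice. Deviations from the group means correlated at -0.19 to 0.33 for same-numbered mice and at -0.33 to 0.16 for others. Those correlations cannot decide it, since the deviations of the 2 not dilated mice are exact opposites. Replicate numbers as a block gave 1939, 858 and 0 calls. Signal over background limits Il1b and Saa3, not above background in any normal mouse, and Lcn2 and S100a9, above it in 1 of 3.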

Other observations

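The genes that stood out most in dilated mouse 3 beside the 8 described were named after their values were seen. After an unnamed probe they were led by Arg1, Cxcl1, Ccl7, Ccl12, Eif2s3y, Socs3, Hp, Il11, Hdc, Cyp2b10, Il33 and Ccl6. Ccl7 and Ccl12, chemokines for monocytes, had intensities of 4.86, 17.9 and 605 and of 97.7, 139 and 1518 in dilated aortas. In aortas that were not dilated they had 3.84 and 23.4 and 28.2 and 171, and in normal aortas 4.0, -3.14 and 46.1 and 49.6, 33.6 and 55.5. Il11, a cytokine of the interleukin-6 family, had 4.25, 29.2 and 497 in dilated aortas, 8.21 and 4.34 in aortas that were not dilated, and 3.86, 9.86 and 1.82 in normal aortas. Hdc, the histamine-forming enzyme, had 222, 276 and 1924 in dilated aortas, 598 and 236 in aortas that were not dilated, and 216, 196 and 292 in normal aortas. Il33, an alarmin of the interleukin-1 family, had 292, 334 and 2097 in dilated aortas, 203 and 295 in aortas that were not dilated, and 808, 699 and 849.8 in normal aortas. Apart from dilated mouse 3, every MPS VII mouse was thus below every normal mouse for Il33. Eif2s3y, a gene of the Y chromosome, was at 287 in dilated mouse 3, 287 in not dilated mouse 2 and 297 in normal mouse 2, the males by label, and was not above background in any other mouse.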
